A study of Drosophila melanogaster with 33 samples.

Results

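The E(z) peaks of Drosophila S2 cells and of S2 cells that express AbdA were compared on the 6 chromosome arms of the fly genome. The regions were chosen by merging the E(z) peak lists of the lines wherever peaks overlapped by 1 bp or more, leaving out mitochondrial, heterochromatic and unplaced sequence. The arms held 4309 of the 6619 E(z) peaks of S2 cells, against 3958 of the 6558 of S2-AbdA cells, and these merged into 4899 regions. A region with peaks in both lines is called kept, one with a peak in S2 cells alone lost, and one with a peak in S2-AbdA cells alone gained. The words describe presence in a list and not a measured change in binding.

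S2 cells are a line derived from late embryos of Drosophila melanogaster, and AbdA is the product of the Hox gene abdominal-A. The E(z) group of S2 cells was the S2-DRSC strain labelled wild type. The E(z) group of S2-AbdA cells was the same strain stably transfected with an HA-tagged abdominal-A, labelled S2-DRSC-HA::AbdA. Both groups had 2 replicates and received 10 µM copper sulphate for 24 h. The sources used here do not say which promoter drives the construct, whether the S2-AbdA line is 1 clone, or whether replicates were separate cultures. The same lines were profiled for dRing, Rpb3, Pol II Ser2P, GAF and M1BP, and S2-AbdA cells also for the HA tag. The input code in the labels was B for the E(z) samples of S2 cells and D for those of S2-AbdA cells, so line and input cannot be told apart. The GAF samples of S2-AbdA cells had code C, and 0.609% of their peaks lay outside the arms against 23.7% without AbdA, so the GAF lists also differed in how much sequence outside the arms they held. A list of the HA control sample of S2 cells was not used here.

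E(z) is the catalytic subunit of Polycomb repressive complex 2 (PRC2), which methylates lysine 27 of histone H3. dRing, also called Sce, is the ubiquitin ligase subunit of PRC1, the other main Polycomb complex. In flies both complexes are recruited to Polycomb response elements, and they are best known for keeping Hox genes such as abd-A silent outside the segments where they act. Rpb3 is a core subunit of RNA polymerase II, and Ser2P is the phosphorylated form of its tail found on elongating polymerase. GAF binds GAGA repeats at promoters and Polycomb response elements, and M1BP binds the Motif 1 element of promoters.

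Each antibody had 1 deposited peak list for each line, on build dm3, so there is no spread between replicates and no test across samples. Read counts are not part of the lists and the depth is unknown. The intervals below are 95% intervals that cover counting error over regions only, and neighbouring regions are not independent. Start positions are given from 1. No gene was assigned to a region, because the annotation at hand is of another genome build.

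E(z) occupied largely overlapping sites in both lines. Of the 4899 regions, 3269 were kept, 1013 were lost and 617 were gained. The lost regions were 23.7% of the 4282 regions with an S2 peak, and the gained ones 15.9% of the 3886 regions with an S2-AbdA peak. The bases covered in both lines were 0.695 of all bases covered in either (Jaccard index). Counted the same way on the arms, 41.0% of dRing regions were lost and 55.7% gained, with a Jaccard index of 0.411. M1BP had 19.9% lost and 9.12% gained regions and a Jaccard index of 0.657, and Rpb3 had 21.6%, 14.5% and 0.589. GAF had 22.2% lost and 53.9% gained regions, and Pol II Ser2P 3.53% and 57.5%. The Jaccard index was 0.395 for GAF and 0.344 for Pol II Ser2P, and of the 6 factors E(z) had the highest.

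The split was similar from arm to arm. On 2L, 2R, 3L, 3R and X the lost share ran from 21.8% on 2L to 27.2% on X (95% interval 23.6 to 31.0%), and the gained share from 14.7% on X to 18.8% on 2R. Chromosome 4 had 25 kept, 14 lost and 2 gained regions. The density of E(z) regions was 42.5 to 44.9 per Mb on the 4 large autosomal arms, 29.2 per Mb on X and 31.1 per Mb on chromosome 4.

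Whether a region was shared went with its score. Of the S2 regions in the lowest 10% by score, 68.8% (95% interval 64.1 to 73.1%) were lost, and in the next 10% it was 50.9%. In the fifth group from the bottom 24.8% were lost and in the seventh 6.07%. Of the 857 S2 regions in the upper 2 groups, with scores from 33.6, 0 were lost. Taking 3 counts as the limit for a count of 0, and not the exact interval, this allows a share of up to 0.350%. In S2-AbdA cells 47.8% of the lowest 10% were gained, and of the upper 2 groups 2 of 388 regions and 1 of 389. The median S2 score was 8.41 for lost and 17.9 for kept regions, and the median S2-AbdA score was 9.08 for gained and 16.5 for kept ones.

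**Figure D1:**
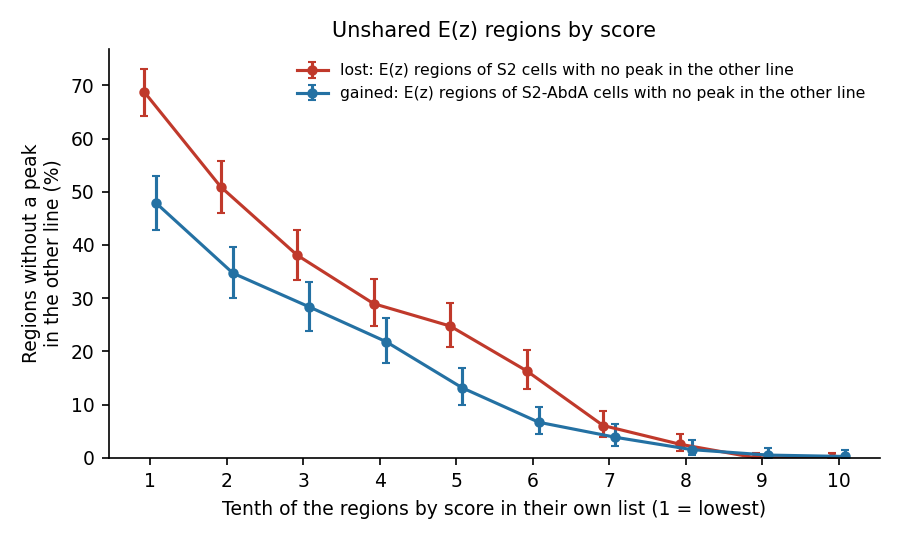
Share of E(z) regions without a peak in the other line (y axis, %) against the score group in the region's own list (x axis, 10 groups of equal size, 1 = lowest). Points are shares and bars exact 95% intervals. The lost share goes from 68.8% to 0 and the gained share from 47.8% to 0.257%.

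The 10 lost regions with the highest scores had S2 scores from 23.3 to 31.4. The first, at chr3L:16838316-16838616, with the highest of these scores, overlapped Rpb3 in both lines and HA-AbdA, and its M1BP peak was present in S2 cells alone. At chr3L:1350434-1350804 (S2 score 28.4) the Rpb3 peak was also present in S2 cells alone, on an HA-AbdA peak. At chr3R:21341659-21342087 (S2 score 24.3) the dRing peak was absent in S2-AbdA cells too. Of the 10, 8 overlapped HA-AbdA, against 74.1% of all lost regions and 63.7% of all E(z) regions. Rpb3 was present in both lines at 7, against 51.8% and 46.9%, and dRing in neither line at 7, against 59.2% and 40.2%. Their widths ran from 271 to 904 bp, against a median of 307 bp for lost regions.

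The gained regions with the highest scores included wider ones, and at 8 of the 10 dRing also held a peak in S2-AbdA cells, at 6 of them with none in S2 cells (34.4% of all gained regions had dRing in S2-AbdA cells). The first, at chr2L:23008077-23009330 near the centromere-proximal end of 2L, had an S2-AbdA score of 60.96, with dRing and M1BP peaks in S2-AbdA cells alone and no Rpb3 or HA-AbdA peak. On X, the regions at chrX:5570193-5571611 (48.8) and chrX:5797702-5798951 (47.1) carried Rpb3 and Pol II Ser2P with or without AbdA, dRing in S2-AbdA cells alone, and no HA-AbdA peak. At chr3R:12651740-12652105 (24.2) the peaks of dRing, Rpb3 and M1BP were all in S2-AbdA cells alone, with no HA-AbdA peak. At chrX:17593192-17593557 (23.5), dRing was new on an HA-AbdA peak. The region at chr2L:10500363-10500633 (22.8) had HA-AbdA and none of the 5 other factors in either line. HA-AbdA lay at 5 of the 10, against 66.5% of all gained regions.

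Lost and gained regions were narrower than kept ones. The median width was 307 bp for lost (quartiles 238 and 411), 333 bp for gained (235 and 484) and 479 bp for kept regions (344 and 738). Part of this comes from merging, and the S2 peaks of kept regions alone had a median of 442 bp. Widths of 1000 bp or more were found in 16.1% of kept (95% interval 14.9 to 17.4%), 2.07% of lost and 3.08% of gained regions. Of the 174 regions of 2000 bp or more, 169 were kept, 2 lost and 3 gained.

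**Figure D2:**
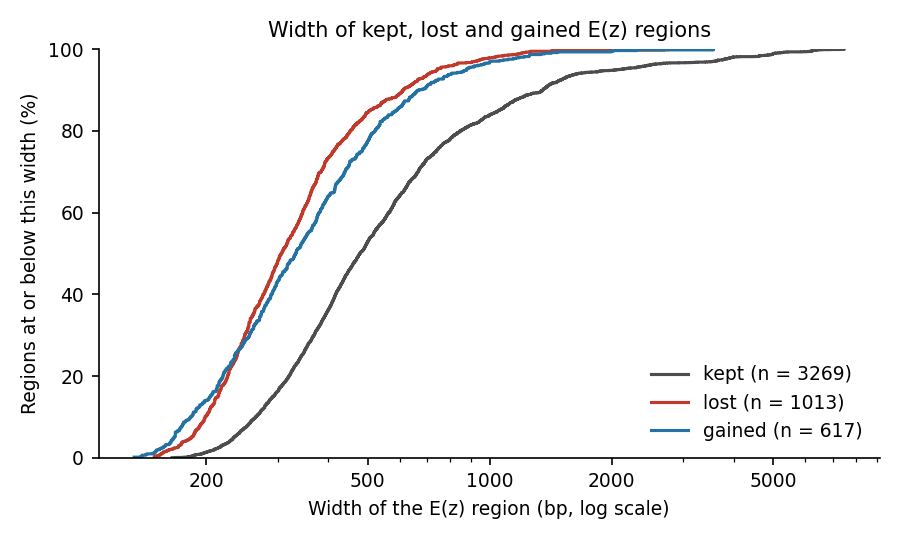
Cumulative share of E(z) regions (y axis, %) by width (x axis, bp, log scale) for the 3269 kept, 1013 lost and 617 gained regions. The kept curve lies to the right, with a median of 479 bp against 307 and 333 bp.

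Kept regions had nearly the same place and extent in both lines. In 3181 of the 3269, 1 S2 peak met 1 S2-AbdA peak, with centres a median of 19.5 bp apart and within 100 bp in 94.6%. A single S2 peak met 2 or more S2-AbdA peaks in 62 regions, and the reverse held in 22. The width in S2-AbdA cells divided by that in S2 cells had a median of 0.971 (quartiles 0.878 and 1.05). There were 17 regions at least 2 times wider in S2-AbdA cells and 32 at least 2 times wider in S2 cells. Over the kept regions Spearman's rho between the lines was 0.914 for widths and 0.762 for scores (n = 3269 regions, which share their libraries).

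The 10 kept regions next described were chosen for a high rank in both lists. The 10 best-ranked kept regions of S2 cells held ranks from 2.5 to 472 in S2-AbdA cells (median 28.5), and the 10 best-ranked of S2-AbdA cells held ranks from 3 to 485 in S2 cells (median 16.5). At chr2L:347779-348488 the score ranked 3 in S2 cells and 2.5 (a tie) in S2-AbdA cells, with GAF in S2 cells alone and dRing in S2-AbdA cells alone. Within 10 kb, chr2L:353909-355402 ranked 4 and 2.5 with dRing in both lines. At chr3R:11451365-11452035 the ranks were 5 and 4, and at chrX:13277768-13278267 they were 6 in each line, the latter on Rpb3 and HA-AbdA. Of the 10 regions high in both lists, 2 overlapped HA-AbdA, against 60.0% of all kept regions, and 9 had a Rpb3 peak in neither line, against 44.3%. Pol II Ser2P was present in both lines at 8, against 42.2%, and dRing in both at 7, against 36.6%. The widest kept region, chrX:13943213-13950693, spanned 7481 bp. The 5 widest all had dRing and Pol II Ser2P in both lines and none overlapped Rpb3 or HA-AbdA. Both sets include regions that recurred across lists, which are described below with their HA-AbdA and Rpb3 shares.

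Ranks were compared over the kept regions alone, so that both lists had equal length. The median shift was 10.6% of the ranks, and 48.2% of kept regions stayed within 10%. Of the 328 kept regions in the highest 10% of S2 cells, 224 (68.3%) were in the highest 10% of S2-AbdA cells. A shift of at least 25% of the ranks was seen upward (towards a better rank in S2-AbdA cells) in 329 regions (10.1% of the kept ones) and downward in 349 (10.7%). The steepest rise was at chr2R:18104600-18104961, from rank 2902 to 631, on an HA-AbdA peak. Next came chr3R:19151839-19152999, from 2823 to 643, and chr2L:13290563-13291036, from 2793 to 700. The steepest falls were at chr3L:16083350-16083751, from 696 to 3028, and chr3L:20021934-20022195, from 956 to 3096. These ranks describe order within a list and carry no test.

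Upward and downward regions differed in their GAF, M1BP and dRing peaks, and no difference in HA-AbdA was detectable. HA-AbdA lay at 73.3% of upward and 74.8% of downward regions, a difference of -1.53 percentage points (95% interval -8.13 to 5.05), and at 56.3% of the 2591 regions that moved less. GAF peaks of S2 cells lay at 62.6% of upward and 38.7% of downward regions, a difference of 23.9 points (16.5 to 31.0), and in the S2-AbdA list it was 10.7 points (3.23 to 18.0). M1BP went the other way, at 40.7% and 53.3% (-12.6 points, -19.9 to -5.05). dRing peaks of S2-AbdA cells lay at 48.6% and 33.0% (15.7 points, 8.29 to 22.8), and those of S2 cells at 47.7% and 35.8% (11.9 points, 4.48 to 19.2). For Rpb3 the difference was 4.64 points in the S2 list (-2.60 to 11.8) and 12.7 points in the S2-AbdA list (5.41 to 19.9). Over all kept regions, GAF of S2 cells lay at 47.4% and M1BP of S2 cells at 55.5%. dRing lay at 53.9% of all kept regions in the S2 list and 51.1% in the S2-AbdA list. Both upward and downward regions thus carried dRing less often than all kept regions. M1BP was lower than this at upward regions and close to it at downward ones. Rpb3 lay at 50.7% (S2) and 49.5% (S2-AbdA) of all kept regions. The median width was 437 bp in upward and 426 bp in downward regions.

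**Figure D3:**
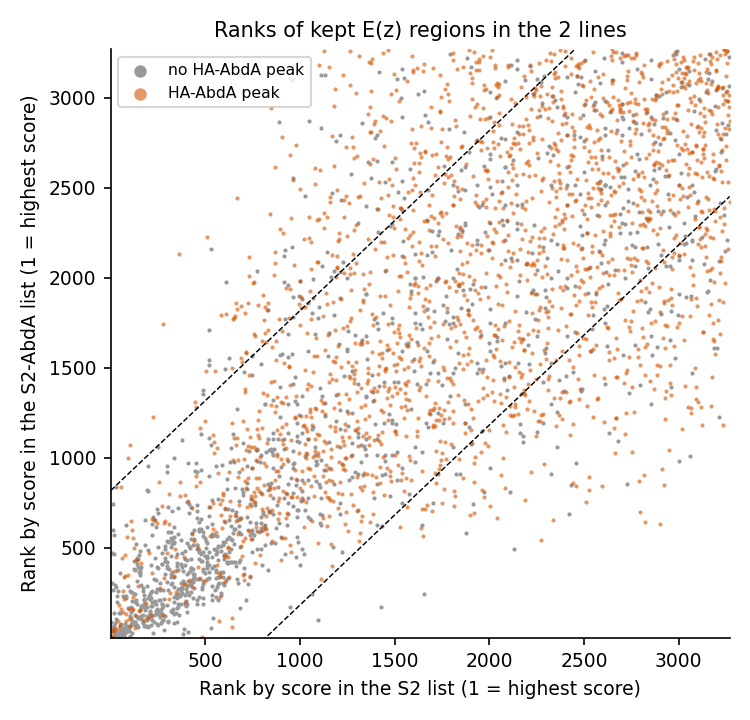
Rank of each of the 3269 kept E(z) regions by score in the S2 list (x axis) and the S2-AbdA list (y axis), 1 being the highest score. Points are coloured by the presence of an HA-AbdA peak, and dashed lines mark a shift of 25% of the ranks. Spearman's rho is 0.762, and points with HA-AbdA lie on both sides of the diagonal.

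E(z) regions were clustered. Joined across gaps of up to 10 kb, they formed 2348 clusters, of which 1283 were single regions and 584 held 3 or more. Clusters of 3 or more contained 57.7% of kept, 45.0% of lost and 50.6% of gained regions. The differences from kept regions were -12.7 points for lost (95% interval -16.2 to -9.16) and -7.13 points for gained regions (-11.4 to -2.84), and for gained regions the value was -1.07 with gaps of up to 30 kb. The nearest other E(z) region lay a median of 2004 bp from kept, 5332 bp from lost and 3151 bp from gained regions. A kept region lay within 1 kb of 34.8% of other kept, 12.9% of lost and 17.3% of gained regions. Of the 584 clusters, 190 held kept regions only, 376 held kept and changed regions, and 18 held no kept region.

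The cluster with most regions lay at chr2L:21451029-21543721 and held 26 kept, 2 gained and 0 lost regions. They covered 77.5% of its 92.7 kb, and its regions of 2000 bp or more began a median of 5.03 kb apart (4.72 to 10.1 kb). The 17 such regions had a median width of 3883 bp. Whether this regular spacing goes with repeated sequence was not tested, nor whether reads there could be placed uniquely. The counts given here and in the class totals treat these regions and peaks as separate sites, which they may not be. The cluster had 29 E(z) peaks without and 28 with AbdA. dRing had 13 peaks there without and 62 with AbdA, and M1BP had 0 and 8. By bases, dRing peaks covered 14.98% of the cluster without and 53.8% with AbdA, and E(z) peaks 72.3% and 76.9%. Pol II Ser2P had 2 long peaks over 99.2% of the cluster without AbdA and 10 shorter ones over 91.0% with it, so its higher number of peaks went with less sequence covered. Rpb3, GAF and HA-AbdA had 0 peaks there. A gained region inside it, chr2L:21486826-21490387, was 3562 bp wide and had dRing and M1BP in S2-AbdA cells alone.

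**Figure D4:**
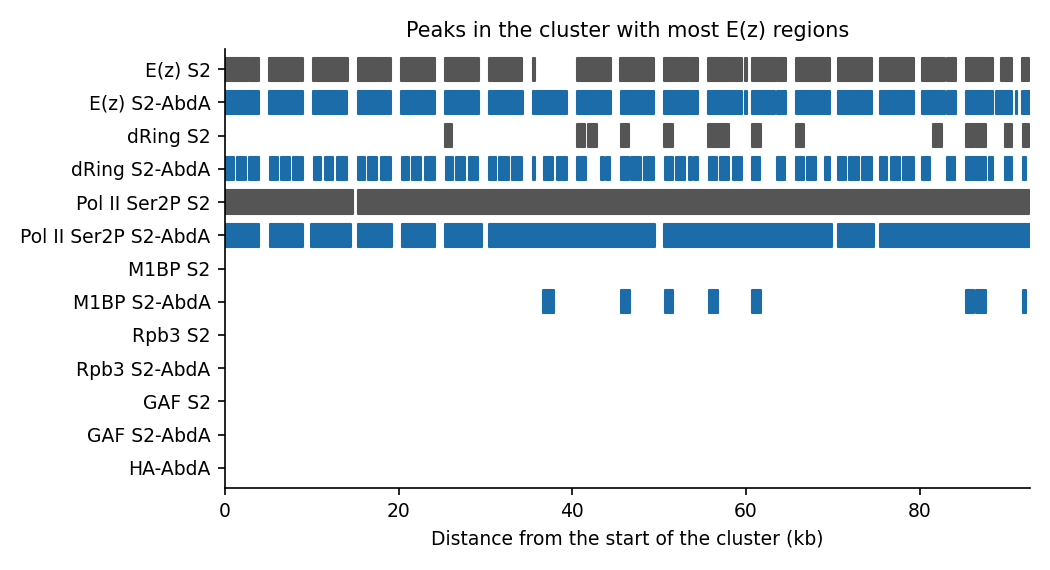
Peaks of the 13 lists along the 92.7 kb cluster at chr2L with most E(z) regions (x axis, kb from its start), S2 lists in grey and S2-AbdA lists in blue. E(z) peaks recur along the cluster in both lines, with 1 wide S2-AbdA peak that S2 cells lack, dRing has 13 and 62 peaks, and Rpb3, GAF and HA-AbdA have 0.

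The next clusters had other partners. At chr3R:8268463-8337018, 22 regions (17 kept, 2 lost, 3 gained) spanned 68.6 kb, and GAF had 16 peaks there without and 2 with AbdA. The GAF lists also differed in their input code and outside the arms, as given above, and what part this has here was not tested. At chr3L:603771-654488, 16 regions (13 kept, 3 gained) lay among 16 HA-AbdA peaks and 14 (S2) and 19 (S2-AbdA) Rpb3 peaks, and dRing had 15 and 29 peaks. At chr2L:19114247-19166263, 9 kept, 5 lost and 1 gained regions lay among 11 HA-AbdA peaks.

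The dRing lists were compared with the E(z) regions, since PRC1 and PRC2 are known to share target sites. A dRing peak of S2 cells lay at 44.5% of all E(z) regions, and one of S2-AbdA cells at 43.6%. dRing peaks covered 1.64% and 1.84% of the bases of the arms, which is not a share of regions. In the S2 lists Rpb3 lay at 53.6% of E(z) regions, GAF at 46.5% and Pol II Ser2P at 35.7%. M1BP also lay at more of them than dRing, and HA-AbdA lay at 63.7%. These lists also covered more of the arms than dRing. In S2 cells Rpb3 covered 6.52%, GAF 4.09%, M1BP 3.15% and Pol II Ser2P 2.61%, and HA-AbdA covered 10.0%. Of these factors, Pol II Ser2P alone lay at fewer E(z) regions than dRing. Shares from lists of unlike coverage cannot be compared directly, so the overlap with dRing was not taken as a check of the E(z) label. At 40.2% of E(z) regions dRing had a peak in neither line. In S2 cells dRing lay at 53.9% of kept (95% interval 52.2 to 55.6%), 26.9% of lost (24.2 to 29.8%) and 23.8% of gained regions (20.5 to 27.4%). In S2-AbdA cells the shares were 51.1%, 24.7% and 34.4%. Lost regions thus carried dRing less often than kept ones already in the S2 list, with a difference of -26.95 points (-30.1 to -23.7).

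The lower share of dRing at lost E(z) regions was also seen among regions of similar score. In the lowest quintile of S2 scores dRing lay at 24.8% of lost and 35.2% of kept regions, in the second at 26.8% and 41.8%, and in the third at 32.4% and 48.2%. Weighted by these quintiles the difference was -13.1 points. For gained regions, the difference in the S2-AbdA list was -16.8 points in all (-20.8 to -12.6) and -3.17 points when weighted by quintile.

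E(z) and dRing peaks were absent together more often than E(z) and polymerase peaks. Over all E(z) regions with an S2 dRing peak, 36.6% had none in S2-AbdA cells. The share was 59.7% of the 273 lost and 32.2% of the 1762 kept E(z) regions, a difference of 27.5 points (21.2 to 33.6). For Rpb3, where 12.5% of all such regions had no S2-AbdA peak, it was 13.9% and 12.2%, a difference of 1.76 points (-1.26 to 5.08). For M1BP it was 18.1% and 14.3% (3.75 points, 0.0518 to 7.87) against 15.7% of all, and for Pol II Ser2P 6.00% and 3.84% (2.16 points, -0.611 to 6.45) against 4.69% of all. For GAF it was lower at lost regions, 16.7% against 34.9% (-18.2 points, -22.2 to -13.7), with 28.8% of all. The GAF list of S2 cells had 23.7% of its peaks outside the arms, against 0.609% in S2-AbdA cells. At kept regions of 2000 bp or more, GAF lay at 38.5% in the S2 list and 9.47% in the S2-AbdA list. What part this difference between the GAF lists has was not tested.

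New peaks also coincided. Of the 212 gained E(z) regions with dRing in S2-AbdA cells, 62.7% had no dRing peak in S2 cells, against 28.5% of the 1672 kept ones and 35.1% of all, a difference of 34.2 points (27.2 to 40.8). Pol II Ser2P, whose S2-AbdA list was longer, was new at 51.9% of gained and 24.4% of kept regions that carried it (27.5 points, 20.5 to 34.5), against 30.8% of all. GAF was new at 29.7% and 28.1% (1.61 points, -3.52 to 7.08), against 29.1% of all. Rpb3 was new at 13.9% and 9.95% (3.95 points, 0.418 to 8.09), against 10.8% of all, and M1BP at 18.3% and 9.02% (9.27 points, 4.04 to 15.8), against 9.99% of all. Weighted by quintiles of the dRing score itself, the differences for dRing were 18.5 points at lost and 25.4 points at gained regions, and weighted by E(z) score they were 15.6 and 16.7 points. Absence of a peak from 2 lists can go with low scores in both, and what part this has beyond the weighting was not tested.

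HA-AbdA lay at 63.7% of all E(z) regions. Its share was 74.1% of lost (95% interval 71.3 to 76.8%), 66.5% of gained (62.6 to 70.2%) and 60.0% of kept regions (58.3 to 61.6%). The difference from kept regions was 14.2 points for lost (10.9 to 17.3) and 6.49 points for gained regions (2.33 to 10.5). It was not seen among regions of similar score. In the lowest quintile of S2 scores 73.7% of lost and 75.9% of kept regions held an HA-AbdA peak, in the second 76.0% and 73.5%, in the third 73.3% and 73.1%, and in the fourth 70.3% of 37 lost and 64.7% of kept regions. The highest quintile, with 857 kept and 0 lost regions, had HA-AbdA at 29.6%. Weighted by quintile the difference was -0.162 points for lost and -7.82 points for gained regions.

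**Figure D5:**
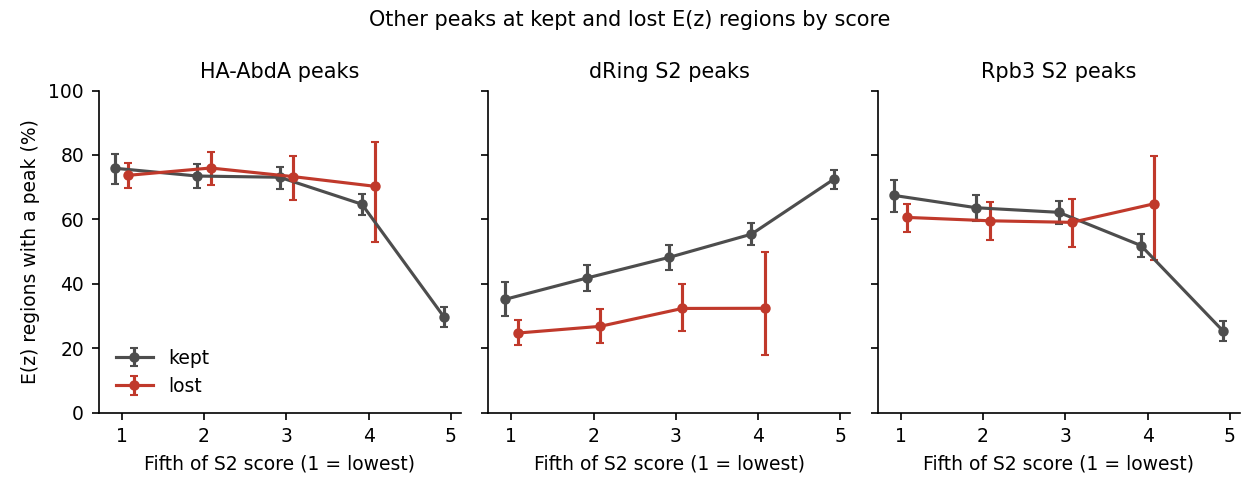
Share of kept and lost E(z) regions with a peak of HA-AbdA, of dRing in S2 cells and of Rpb3 in S2 cells (y axis, %) by quintile of the S2 E(z) score (x axis, 1 = lowest). Points are shares and bars exact 95% intervals, and no region of the highest quintile was lost. The intervals of kept and lost regions overlap for HA-AbdA, at 75.9% of kept and 73.7% of lost regions in the lowest quintile, and lie apart for dRing there, at 35.2% of kept and 24.8% of lost ones.

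On X, HA-AbdA lay at 43.0% of kept and 67.7% of lost regions, and on the 4 large autosomal arms at 56.3 to 65.7% of kept and 73.5 to 77.0% of lost ones. Within kept regions it lay at 80.0% of those with an S2 Rpb3 peak and 39.3% of those without, and within lost regions at 78.2% and 68.0%. Kept and lost regions on Rpb3 had similar HA-AbdA shares, and the gap lay in the regions without Rpb3. Kept regions that recurred across lists, described below, had HA-AbdA at 21.3% and Rpb3 of S2 cells at 21.9%. The other kept regions had 69.7% and 58.0%, and the split by Rpb3 was not repeated without the recurrent ones. With an S2 dRing peak, HA-AbdA lay at 53.7% of kept and 79.9% of lost regions, and without one at 67.3% and 72.0%.

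Polymerase and the promoter factors lay at many E(z) regions of each class. Rpb3 of S2 cells overlapped 53.6% of all regions, 60.2% of lost, 57.9% of gained and 50.7% of kept ones. The difference of lost from kept regions was 9.47 points (5.97 to 12.9) over all scores and -4.66 points when weighted by quintile. In the S2-AbdA list Rpb3 overlapped 52.6% of all regions, and the difference of gained from kept ones was 9.99 points (5.71 to 14.2) and -2.31 points when weighted. Pol II Ser2P of S2 cells overlapped 35.7% of all regions, 43.8% of kept, 19.7% of lost and 18.8% of gained ones. In S2-AbdA cells these were 49.2%, 55.7%, 37.3% and 34.0%. The difference of lost from kept regions in the S2 list was -24.1 points (-27.0 to -21.0) and -7.43 points when weighted by quintile, and that of gained regions in the S2-AbdA list was -21.7 points (-25.7 to -17.5) and -9.34 points when weighted.

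M1BP of S2 cells lay at 2448 (50%) of all regions, 55.5% of kept, 44.2% of lost and 30.1% of gained ones. Its difference at lost regions was -11.3 points (-14.7 to -7.75) and 2.20 points when weighted by quintile. In the S2-AbdA list it lay at 46.8% of all regions, and at 28.4% of gained against 52.2% of kept ones (-23.9 points, -27.7 to -19.8, and -13.6 points when weighted). GAF went the other way. In the S2-AbdA list it lay at 46.7% of all regions, and at 57.2% of gained against 42.9% of kept ones (14.3 points, 9.97 to 18.5, and 3.94 points when weighted). That list also had GAF at 52.2% of lost regions (9.27 points, 5.75 to 12.8), so a share above that of kept regions was not particular to gained ones. GAF of S2 cells lay at 46.5% of all regions, 47.4% of kept, 43.0% of lost and 47.0% of gained ones, and its difference at lost regions was -4.37 points (-7.84 to -0.862) and -8.40 points when weighted.

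The combination of factors found most often differed between the classes and between the lists of the lines. In S2 cells the most frequent combination at lost regions was Rpb3 with M1BP (13.2%), then Rpb3 with GAF (11.6%). At gained regions, in the same lists, it was Rpb3 with GAF (14.9%), followed by no factor at all (13.3%). At kept regions it was dRing with Pol II Ser2P, GAF and M1BP and no Rpb3 (8.93%). Over all regions these shares were 8.90% for Rpb3 with M1BP, 9.002% for Rpb3 with GAF, 5.57% for no factor and 6.04% for the set of 4. In the S2-AbdA lists Rpb3 with GAF came first at lost regions (9.48%, against 7.08% of all) and no factor at gained ones (11.99%, against 5.94%). At kept regions it was dRing with Pol II Ser2P and M1BP (16.4%, against 11.1%). No other factor was present in S2 cells at 3.09% of kept, 8.88% of lost and 13.3% of gained regions, and 4 or more were present at 20.6%, 7.60% and 5.67%, against 16.1% of all. In the S2-AbdA lists the shares with 4 or more lay closer together, at 16.1% of kept, 12.1% of lost, 15.4% of gained and 15.2% of all regions.

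A set of E(z) regions recurred across lists. Besides the E(z) lists, 7 lists had more than 20% of their peaks outside the arms, and 693 E(z) regions (14.1%) held peaks of at least 6 of these 7. They made up 20.1% of kept, 2.47% of lost and 1.78% of gained regions. Their median width was 826 bp against 384 bp for the other regions, HA-AbdA lay at 24.5% against 70.2%, and Rpb3 of S2 cells at 24.8% against 58.3%. The recurrent regions were chosen by dRing, Pol II Ser2P, GAF and M1BP peaks, so their shares of those factors are not given. The HA-AbdA list had 0.386% of its peaks outside the arms, and the Rpb3 lists 0.598% (S2) and 0.629% (S2-AbdA). Among kept regions high in both lists, chr2L:347779-348488 held peaks of 6 of the 7 lists and chrX:13277768-13278267 of 3. The widest kept region, chrX:13943213-13950693, held peaks of 6. Without the recurrent regions, an HA-AbdA peak was held by 69.7% of kept, 74.0% of lost (difference 4.31 points) and 66.0% of gained regions (-3.67 points). The difference in dRing at lost regions was then -17.7 points, and the excess of dRing peaks absent in S2-AbdA cells was 14.8 points. Both values are shaped by the removal itself, because dRing peaks helped choose the regions removed. With the removal the dRing share of kept regions in the S2 list went from 53.9% to 43.6%. These values are therefore not a separate check of the dRing results.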

How the data were processed

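ChIP-seq was measured with 2 replicates per antibody and line, and the labels name the same peak list for both replicates, so 1 list stood for each line, and the sources used here do not say how replicates were combined. BWA 0.7.12, MACS2 and build dm3 are named in the submitters' processing notes, whose text at hand gives no settings. Scores as deposited are above 0 and their unit is not stated. They served for ranking and filtering inside 1 list and were never compared across lists. Of the E(z) scores on the arms, 329 without and 462 with AbdA have more than 5 decimals, and these peaks were wider (medians 898 and 1020 bp). The genome at hand was Release 6, where 3R is 32079331 bp long against a largest peak end of 27898841, so no gene or sequence was assigned.

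Peaks on M, U, Uextra and chromosomes ending in Het were left out. The E(z) lists were merged where peaks overlapped by 1 bp or more, with pandas 2.3.3 and numpy 2.4.6 in Python 3.11.15. A region took the highest score of its peaks. Shares carry exact Clopper-Pearson 95% intervals and differences of shares Newcombe 95% intervals (scipy 1.17.1). No p-value was computed, because 1 list per line leaves no spread between replicates. Overlap and merge counts were checked against bedtools 2.31.1 in 27 comparisons, of which 0 differed, and the classes were tested on simulated data. Named regions were the 10 highest-scoring lost and gained ones, the 10 kept ones with the best worse rank, the 10 that moved up and the 10 that moved down most, the 5 widest and the 5 largest clusters, from which the text picked examples after their values were seen. The E(z) regions and these rules were chosen with earlier results of these data known. Alternatives were other overlap and merging rules, stricter or equal-length lists, all chromosomes, the removal of recurrent regions, 500 bp windows and score quintiles. Weighting by dRing score and leaving out chromosome X were added after seeing the data.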

Additional observations from a re-analysis of the deposited data

Results flagged for a closer look

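The E(z) lists also held peaks outside the arms, in heterochromatic and unplaced sequence that the comparison left out, and these are given because they form a large part of both lists. There were 2310 such peaks in S2 cells (34.9% of the list) and 2600 in S2-AbdA cells (39.6%). They merged into 2227 kept, 75 lost and 328 gained regions, so that 3.26% (95% interval 2.57 to 4.07%) of the S2 regions were lost and 12.8% (11.6 to 14.2%) of the S2-AbdA regions were gained. On the arms lost regions outnumbered gained ones, and outside them gained regions outnumbered lost ones. No control list was used here, and the difference was not tested.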

How the results depend on the processing

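No paired analysis was possible because the replicates of a line share 1 peak list, and for the same reason no replicate could be left out. Differences are percentage points against kept regions. Across 21 results and 203 alternative values, 194 kept the direction of the reported value and 106 also stayed within its interval or within 1.5 times its count. The 194 include the counts of regions and the share that moved rank, which cannot change direction. Below, "dRing absent" is the share of E(z) regions with an S2 dRing peak that had none in S2-AbdA cells, and "dRing new" the share with an S2-AbdA dRing peak that had none in S2 cells.

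With centres within 250 bp and no merging, HA-AbdA gave 8.83 at lost and -2.33 at gained regions, dRing -22.1 and -6.09, Rpb3 5.48 and 2.69, dRing absent 14.4 and dRing new 18.95. With peaks up to 1 kb apart merged, HA-AbdA gave 4.77 and -1.85 and Rpb3 0.232 and 2.87. With the higher-scoring 50% of each E(z) list there were 1571 kept, 566 lost and 362 gained regions, HA-AbdA gave 27.3 and 29.2, Rpb3 22.5 and 34.5, dRing absent 34.5 and dRing new 24.3. Set against the whole list of the other line, these higher-scoring peaks had 106 lost and 47 gained regions, HA-AbdA gave 11.3 at gained regions, dRing -9.40 there, Rpb3 17.8 and 35.3, and dRing absent 42.6. With lists of equal length Rpb3 gave 14.2 at gained regions. On all chromosomes there were 5496 kept and 945 gained regions, HA-AbdA gave 33.9 at lost regions, dRing -33.98 and -24.3, Rpb3 25.6 at lost regions, dRing absent 36.4 and dRing new 41.5. Without recurrent regions HA-AbdA gave 4.31 and -3.67, dRing -17.7 and -6.64, Rpb3 2.02 and 2.29, dRing absent 14.8 and dRing new 22.3. With the higher-scoring 50% of each factor list HA-AbdA gave 8.05 and dRing -22.3 at lost regions, Rpb3 0.0830 at gained ones, M1BP 2.17 at lost ones, dRing absent 34.4 and dRing new 45.4. Weighted by E(z) score quintiles, HA-AbdA gave -0.162 and -7.82, dRing -13.1 and -3.17, Rpb3 -4.66 and -2.31, M1BP 2.20 at lost regions, dRing absent 15.6 and dRing new 16.7. Weighted by dRing score, the last pair was 18.5 and 25.4. The share in clusters gave -18.2 and -12.0 with gaps of 3 kb and -4.40 and -1.07 with 30 kb. Thus the directions for dRing, dRing absent, dRing new and clustering were kept under every alternative run. For dRing the removal of recurrent regions is not a separate check, because dRing peaks helped choose those regions. Those for HA-AbdA and Rpb3 were not, and that for M1BP at lost regions was reversed in 2 of 12. Some kept directions had intervals that include 0. Among them were clustering of gained regions with 30 kb (-4.40 to 1.92) and dRing at gained regions against the whole other list (-23.0 to 4.71). GAF at lost regions kept its direction, but its interval included 0 with centres within 250 bp (-6.25 to 0.481). It did so too without recurrent regions (-4.54 to 2.68) and with 500 bp windows (-6.58 to 0.395). The weighted differences carry no interval. Fewer peaks entered the stricter lists by construction, and for the other moves the cause was not tested. Read depth is unknown, so a peak absent from a list may lie just under its threshold.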

Other observations

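Near the centromere-proximal ends lost E(z) regions were less frequent than kept ones, and gained regions could not be told apart from kept ones. The 2 Mb nearest the centromere on 2L, 2R, 3L, 3R and X, 8.31% of the arms, held 8.57% of kept (95% interval 7.63 to 9.58%), 5.03% of lost (3.77 to 6.57%) and 6.48% of gained regions (4.67 to 8.72%). Kept regions there had a median width of 733 bp against 467 bp elsewhere. Of the recurrent kept regions 14.2% lay in these windows, against 7.16% of the other kept and 5.06% of the other lost regions. Among regions without an HA-AbdA overlap, the nearest HA-AbdA peak lay a median of 7429 bp from kept, 2844.5 bp from lost and 3699 bp from gained regions.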
